A study of Mus musculus with 6 samples.

Results

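The 41 genes described here act in the G2 phase of the cell cycle and in mitosis. They were found by gene name in the deposited table, which lists 21139 genes, and each name matched 1 row. All 41 passed the filter on low counts and were among the 13507 genes tested. The libraries were made from mouse spleen CD4+ T cells of strain C57BL/6J. The 3 CpdA libraries came from cells given CpdA, which the series describes as an agonist of the fatty acid receptor Gpr120, at a dose of 20 written as "microm" and read here as micromolar. The other 3 came from cells in medium alone. Cells of both groups had been stimulated through CD3 and CD28 for 2 days, in RPMI medium with fetal bovine serum. The treatment time was read as 2 days for all 6 libraries, those in medium alone included. No source used here names a vehicle for the medium cells. Whether the libraries of a group came from different animals or cultures is not stated, and p-values therefore describe only how these libraries scatter, which may be technical.

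A T cell stimulated through its antigen receptor leaves quiescence, copies its DNA and divides. Passage from G2 into mitosis is driven by the kinase Cdk1 with cyclins A and B. Chromosomes are then attached to the spindle at their kinetochores, and the spindle checkpoint holds back the anaphase-promoting complex until attachment is complete. Transcripts of these genes peak in late S phase, G2 and mitosis. They are held down in quiescent cells by the DREAM complex and switched on by B-Myb and FoxM1, which act with the MuvB proteins at a promoter element called the cell cycle homology region. The same promoters often hold CCAAT boxes, which bind NF-Y. In bulk RNA a larger share of cells in G2 or mitosis and more transcript per cell cannot be told apart.

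Promoter stretches are shown for 6 genes that differed in which letters of these elements were found and in whether they passed the test. Cdk1, Cdc20, Kif11 and Ttk held both sets of letters, Ccnb1 held CCAAT alone, and Nuf2 held neither in its window. Cdk1, Cdc20, Ccnb1 and Nuf2 were higher with CpdA, whereas Kif11 and Ttk did not pass the test. Each runs 5′ to 3′ on the gene's own strand from 100 bases before to 20 bases after the annotated start (RefSeq, GRCm38.p6), at chr10:69352893-69353012 (minus), chr4:118437324-118437443 (minus), chr13:100786467-100786586 (minus), chr1:169531445-169531564 (minus), chr19:37376282-37376401 (plus) and chr9:83834589-83834708 (plus). Capitals mark TTTGAA, the letters of the homology region, and CCAAT, in either orientation (TTCAAA and ATTGG). Only these exact letters were searched for, so a variant of either element would be missed.
Cdk1: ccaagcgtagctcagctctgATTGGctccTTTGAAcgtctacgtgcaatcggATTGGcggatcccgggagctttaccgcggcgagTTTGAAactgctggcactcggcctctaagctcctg
Cdc20: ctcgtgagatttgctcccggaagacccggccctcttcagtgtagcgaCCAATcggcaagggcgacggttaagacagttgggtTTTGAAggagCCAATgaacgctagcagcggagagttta
Ccnb1: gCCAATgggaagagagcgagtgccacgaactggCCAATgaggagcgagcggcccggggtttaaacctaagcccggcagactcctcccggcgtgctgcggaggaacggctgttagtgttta
Nuf2: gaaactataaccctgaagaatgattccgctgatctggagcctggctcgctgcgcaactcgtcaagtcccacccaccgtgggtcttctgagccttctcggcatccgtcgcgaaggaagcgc
Kif11: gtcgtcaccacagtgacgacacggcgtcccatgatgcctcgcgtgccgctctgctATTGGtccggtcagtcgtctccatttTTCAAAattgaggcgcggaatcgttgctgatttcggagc
Ttk: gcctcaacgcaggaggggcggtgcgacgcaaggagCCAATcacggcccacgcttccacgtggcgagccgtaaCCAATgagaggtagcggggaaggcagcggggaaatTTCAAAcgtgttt

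Both sets of letters were common in the promoters of the members. RefSeq promoter windows of 300 bases, 250 before and 50 after the start, were found for 34 of the 41 genes. Cdc25c, Tpx2, Ccna2, Aurkb, Foxm1, Kif20a and Incenp were not matched. TTTGAA, searched on both strands, was present in 24 of the 34 windows (70.6%), against 20.2% of the 27025 genes with a window and 14.0% of the 9503 of them tested in the fit. CCAAT, searched on both strands, was present in 26 of 34 (76.5%), against 41.1% of all genes with a window and 42.8% of those tested. In the members' windows 1 match of TTTGAA shared bases with a match of CCAAT, and 1 pair of CCAAT matches shared bases. The match nearest to the start lay within 60 bases of it, a distance chosen after the positions were seen, in 22 of the 24 members with TTTGAA, or 91.7%, against 30.2% of the 4893 genes with a match in the first listed window of the gene. Genes with and without a call held the letters. TTTGAA was found in 13 of 21 members called higher and in 11 of 13 that were not called, and CCAAT in 15 of 21 and 11 of 13; the difference was not tested. A match is a description of letters, not of a bound site.

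**Figure D1:**
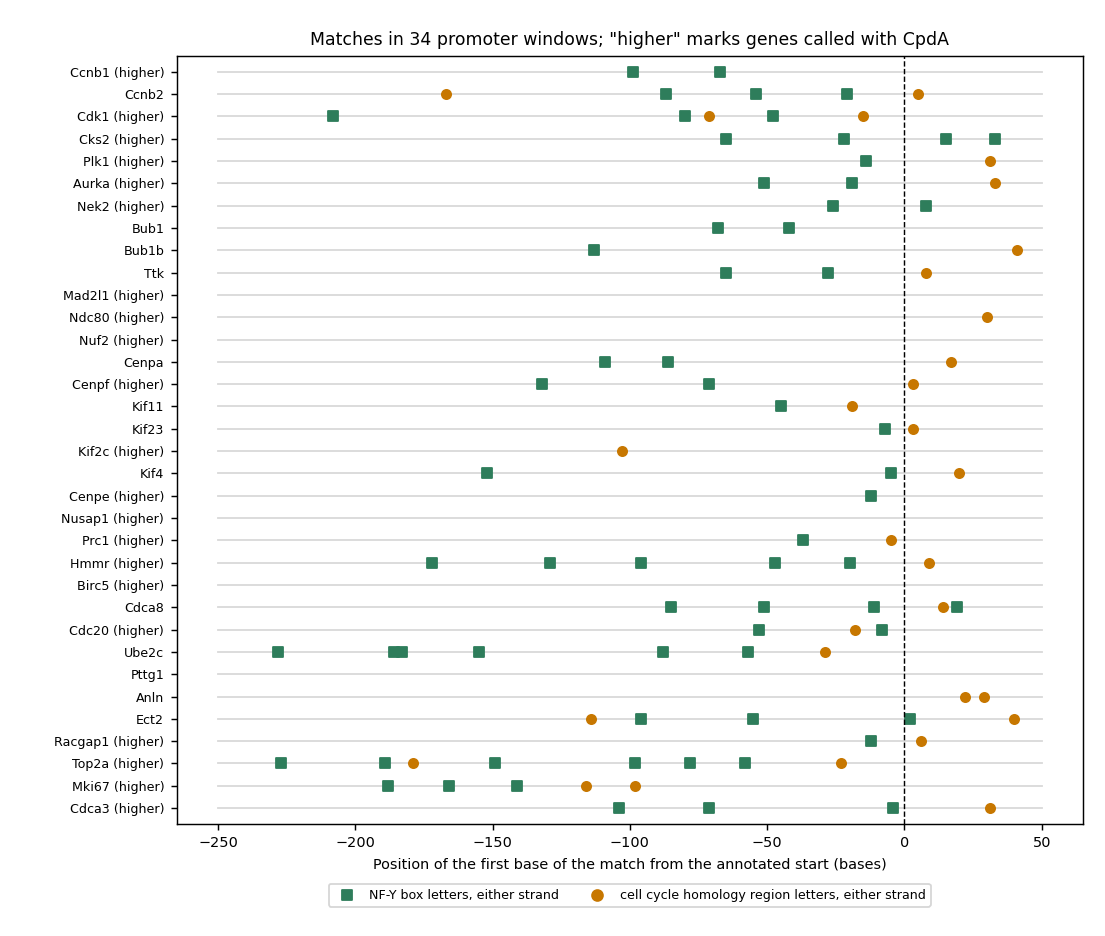
Matches to the homology region letters (circles) and the NF-Y box letters (squares) in the promoter windows of 34 members, by distance in bases from the annotated start (dashed line); "higher" marks genes called higher with CpdA. Most circles lie close to the start in called and uncalled genes alike, with 22 of the 24 nearest matches within 60 bases.

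With CpdA, 25 of the 41 genes (61.0%) were higher and 0 were lower (quasi-likelihood test of edgeR, Benjamini-Hochberg adjusted p under 0.05 over all genes tested). Over all tested genes, 16.5% were called higher and 16.7% lower. Among the 7555 tested genes with a mean level at least that of the lowest member (16.7 CPM, where CPM is a gene's count scaled by the library total), 24.9% were called higher and 20.9% lower. The shifts were small: the median log2 fold change of CpdA over medium was 0.13 over the members, against 0.0004 over all tested genes, and the largest was 0.32 (Kif20a). Fold changes were positive for 37 members and negative for 4, namely Bub1, Ttk, Aurkb and Anln. Of these 4, 1 (Anln) had an unadjusted p under 0.05, and DESeq2 and limma-voom each called 0 members lower as well. CPM of the 3 CpdA libraries lay above all 3 medium libraries for 29 of the 41 genes, which held for 22.9% of tested genes.

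**Figure D2:**
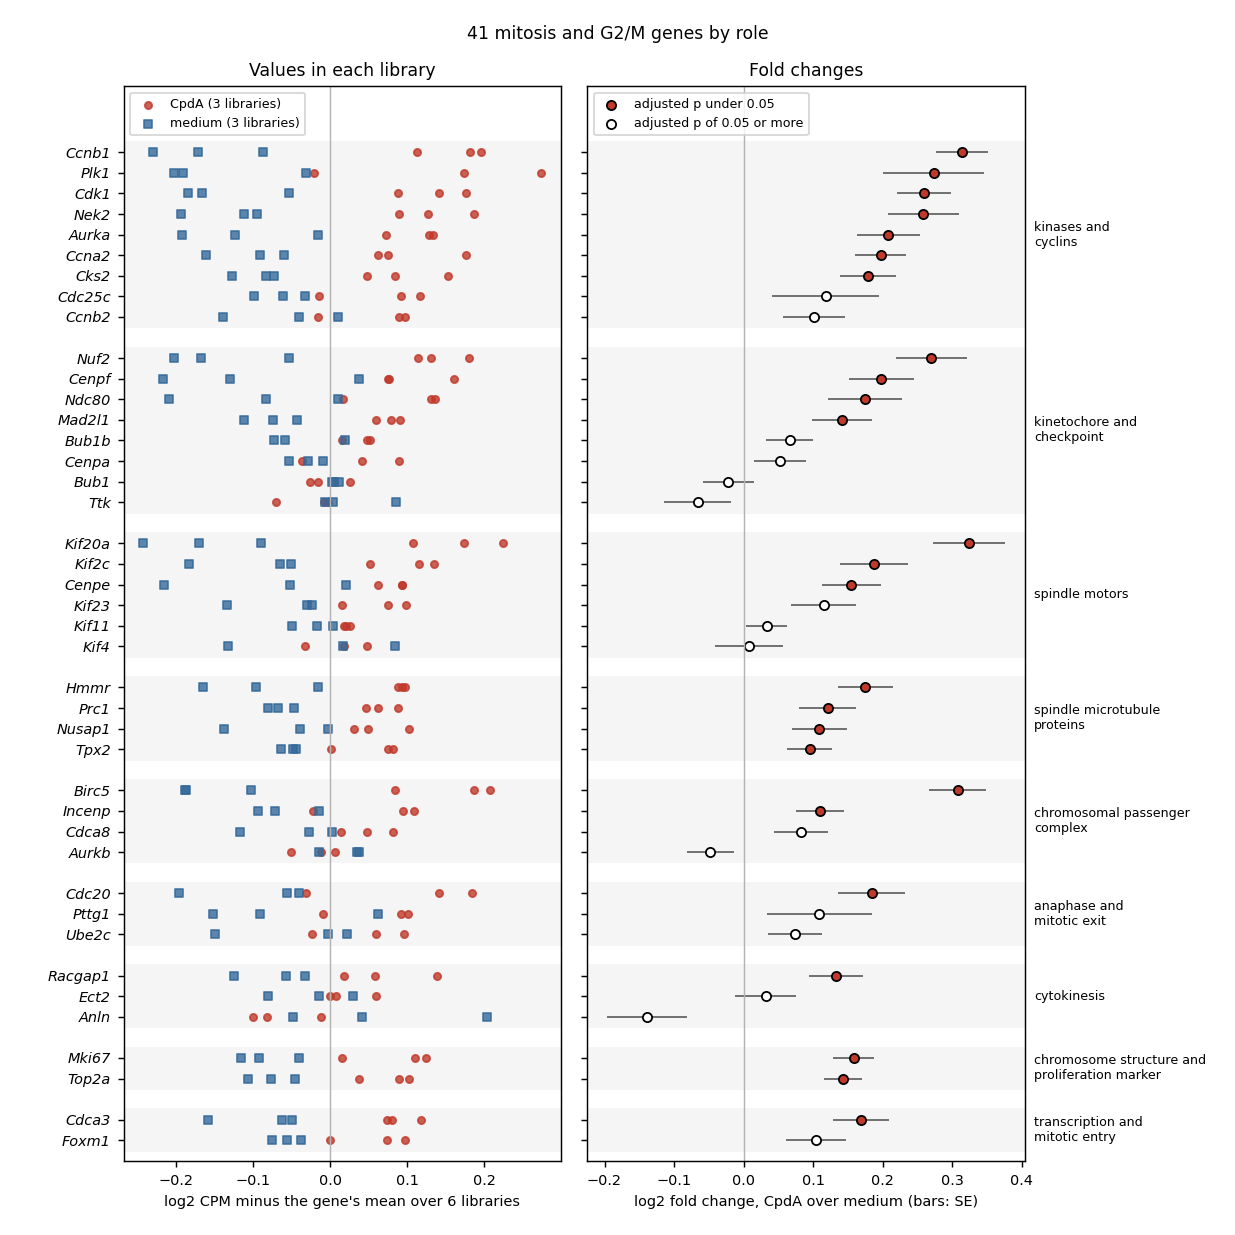
Left, log2 CPM of each of the 41 genes in each of the 6 libraries, relative to the gene's mean over the libraries (CpdA circles, medium squares); right, log2 fold change of CpdA over medium with its SE, filled where the adjusted p is under 0.05. Filled points run from Tpx2 at 0.10 to Kif20a at 0.32, and Anln, Ttk, Aurkb and Bub1 lie below 0.

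Library totals ran from 20247761 to 25952169 counts. The median deviation of the members from their own mean over the 6 libraries, on the log2 scale, was 0.086, 0.048 and 0.071 in the CpdA libraries and -0.104, -0.045 and -0.046 in the medium libraries. CpdA replicate 1 and medium replicate 1 therefore stood furthest apart, with 38 of 41 genes above their mean in CpdA replicate 1 and 36 of 41 below it in medium replicate 1. CD4 T cell markers summed to 2798 to 2872 CPM with CpdA and 2840 to 2891 CPM in medium, with Cd5 the highest of them. Of these 10 genes, 2 were called higher and 6 lower, although the sums were close. The shares over all tested genes, here and for the markers below, were 16.5% higher and 16.7% lower. Markers of B cells summed to 30.2 to 35.9 CPM with CpdA and 28.3 to 35.95 CPM in medium, with 1 of 6 called higher, and those of CD8 T cells to 7.33 to 9.40 and 7.99 to 8.84 CPM. Dendritic cell markers (5 genes) summed to 6.78 to 8.08 CPM with CpdA and 5.99 to 6.43 CPM in medium. Neutrophil markers (2 genes) summed to 5.93 to 6.35 CPM with CpdA and 7.35 to 8.30 CPM in medium, and 1 of them was called lower. Erythroid (4 genes), NK cell (4), macrophage (5) and stromal markers (4) each summed to under 5 CPM in every library. No marker used was at 0 in all 6 libraries. The part of these cells in the results was not tested.

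Of the kinases and cyclins of mitotic entry 7 of 9 were higher, with a median log2 fold change of 0.21. The share to set beside this and the other class counts is 16.5% higher over all tested genes. Among tested genes at or above the lowest member's level it is 24.9%. Ccnb1 codes for cyclin B1, the main partner of Cdk1 at mitotic entry (chromosome 13, 100778650 to 100786570, GRCm38). It had 157, 149 and 156 CPM with CpdA and 117, 129 and 122 CPM in medium. The groups did not overlap, and the log2 fold change was 0.31 ± 0.04 (SE, n = 3 libraries each; adjusted p = 5.53e-09, edgeR). Reads of Ccnb1 and Ccnb2 may be shared with the pseudogenes annotated for each. Cdk1 itself (chromosome 10, 69336635 to 69352938) had 122, 117 and 125 CPM with CpdA and 97.0, 106 and 98.3 CPM in medium. All CpdA libraries lay above all medium libraries, and the fold change was 0.26 ± 0.04 on the log2 scale (SE; adjusted p = 1.07e-06, edgeR). Ccnb2, the second B-type cyclin, had the smallest fold change of the class, with 80.8, 74.8 and 80.4 CPM with CpdA and 68.6, 76.1 and 73.5 CPM in medium. CpdA replicate 2 fell among the medium values, and the log2 fold change of 0.10 did not pass (adjusted p = 0.0796, edgeR). It passed without CpdA replicate 2 (adjusted p = 0.0253) and without medium replicate 2 (0.0305). The ratio of Ccnb1 to Ccnb2 in FPKM, which is per deposited gene length, was 1.21, 1.23 and 1.20 with CpdA and 1.06, 1.05 and 1.03 in medium. Relative to Ccnb2, Ccnb1 thus stood higher with CpdA than in medium. Such ratios were computed for 12 pairs of genes, chosen after their fold changes were known, and carry no test. The groups overlapped in 6 of the 12, among them Nuf2 to Ndc80, Kif23 to Racgap1 and Bub1b to Bub1.

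Plk1 codes for the polo-like kinase that drives centrosome maturation and spindle assembly. It had 127, 103 and 118 CPM with CpdA and 91.1, 103 and 91.9 CPM in medium. CpdA replicate 2 was only just above medium replicate 2, and the SE was the largest among the called genes (log2 fold change 0.27 ± 0.07, adjusted p = 0.0168, edgeR). The call was lost without CpdA replicate 3 (adjusted p = 0.0604), medium replicate 1 (0.0984) or medium replicate 3 (0.0594). Nek2, a kinase that parts the centrosomes, rose by 0.26, Aurka, the Aurora kinase of the spindle poles, by 0.21, and Ccna2, cyclin A2, by 0.20 on the log2 scale. Cks2, a small subunit that binds Cdk1, rose by 0.18. Ccna2 overlaps Exosc9 on the other strand by 864 bases, and the strand setting of the counting is not given. Cdc25c, a phosphatase that switches Cdk1 on, had the lowest FPKM of the class in medium. Its libraries read 17.8, 16.5 and 18.1 CPM with CpdA and 15.6, 16.3 and 15.97 CPM in medium (log2 fold change 0.12, adjusted p = 0.261, edgeR), and it overlaps Gm3550 on the other strand by 1656 bases.

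Genes of the kinetochore and the spindle checkpoint were divided: 4 of 8 were higher, and the 4 others, 3 of them checkpoint kinases or their relative, did not pass. The median log2 fold change was 0.10. Nuf2 and Ndc80 code for partners in the complex that grips microtubule ends. Nuf2 (chromosome 1, 169497934 to 169531464) had 52.6, 50.3 and 50.9 CPM with CpdA and 40.4, 41.4 and 44.8 CPM in medium, without overlap (log2 fold change 0.27 ± 0.05, SE, adjusted p = 5.43e-05, edgeR). Ndc80 had 53.9, 49.6 and 53.7 CPM with CpdA and 42.4, 46.3 and 49.4 CPM in medium. The lowest CpdA library and the highest medium library were nearly equal, and the log2 fold change was 0.17 (adjusted p = 0.00978, edgeR). The call on Ndc80 was lost without CpdA replicate 3 (adjusted p = 0.0519), without medium replicate 1 (0.106) and with trends on GC content and gene length removed (0.105). Cenpf, a large protein of the outer kinetochore, rose by 0.20. Mad2l1, the checkpoint protein that binds Cdc20, had 73.3, 72.7 and 71.7 CPM with CpdA and 63.7, 65.4 and 66.8 CPM in medium. These groups did not overlap and the log2 fold change was 0.14 (adjusted p = 0.00895, edgeR), but with the trends on GC content and length removed it was 0.06 (adjusted p = 0.279).

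The checkpoint kinase genes showed no such shift. Bub1, a kinase at the kinetochore, had 107, 103 and 104 CPM with CpdA and 105, 105 and 106 CPM in medium (log2 fold change -0.02 ± 0.04, SE, adjusted p = 0.698, edgeR). The medium values lay inside the range of the CpdA values. Ttk, which codes for the checkpoint kinase Mps1, had 51.99, 51.8 and 49.6 CPM with CpdA and 51.9, 55.3 and 52.2 CPM in medium (log2 fold change -0.07, adjusted p = 0.319, edgeR). It was below the threshold, as lower, with trends on GC content and length removed (log2 fold change -0.12, adjusted p = 0.0493). Bub1b, which codes for the checkpoint protein BubR1, did not pass (log2 fold change 0.07, adjusted p = 0.145, edgeR). Without medium replicate 2 Bub1b passed, as higher (log2 fold change 0.10, adjusted p = 0.0432, edgeR). Cenpa, the histone H3 variant that marks centromeres, had 127, 117 and 123 CPM with CpdA and 115, 117 and 119 CPM in medium. The groups overlapped and the log2 fold change was 0.05 (adjusted p = 0.305, edgeR).

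Of the spindle motors 3 of 6 were higher and 3 did not pass, with a median log2 fold change of 0.13. Kif20a, a kinesin of the central spindle needed for cytokinesis, had the largest fold change of all 41 genes. It had 51.1, 48.8 and 52.9 CPM with CpdA and 38.3, 40.2 and 42.6 CPM in medium, without overlap (log2 fold change 0.32 ± 0.05, SE, adjusted p = 4.19e-06, edgeR). Kif20a overlaps Cdc23 on the other strand by 2315 bases. Over all libraries Cdc23 had 6710 counts and Kif20a 6391, and whether they share reads was not tested. Cdc23 itself did not pass (log2 fold change 0.09, adjusted p = 0.164, edgeR). Kif2c, a motor that takes microtubule ends apart, rose by 0.19. Cenpe, the motor that carries chromosomes to the spindle equator, had 117, 119.7 and 119.7 CPM with CpdA and 114, 96.7 and 108 CPM in medium. The CpdA libraries were close together and the medium libraries spread, and the log2 fold change was 0.15 (adjusted p = 0.00439, edgeR); without medium replicate 2 it was 0.09 (adjusted p = 0.0797).

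Kif11, the motor that pushes the spindle poles apart, was the motor gene with the highest level per length, at 48.7 ± 0.1 FPKM with CpdA and 47.3 ± 0.9 FPKM in medium (SD, n = 3 libraries each). Its libraries read 235, 235 and 234 CPM with CpdA and 228, 223 and 232 CPM in medium. The groups did not overlap, but the log2 fold change was 0.03 ± 0.03 (SE) and did not pass (adjusted p = 0.441, edgeR). Kif4, a chromosome-bound motor on chromosome X, had 59.5, 62.9 and 61.6 CPM with CpdA and 55.5, 64.5 and 61.5 CPM in medium (log2 fold change 0.01, adjusted p = 0.921, edgeR). Its sign was negative without CpdA replicate 2, without medium replicate 1 and under a stricter count filter. Kif4 overlaps Pdzd11 on the other strand by 832 bases and has an annotated pseudogene. Kif23, the motor of the centralspindlin complex, had a log2 fold change of 0.12 and missed the threshold (adjusted p = 0.0565, edgeR); it passed without CpdA replicate 1 (0.0379) and with scaling by library size alone (0.0376).

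The 3 classes named above can be set side by side, though the difference between them was not tested. The median deviation from the gene means was 0.15, 0.07 and 0.11 (log2) in the CpdA libraries and -0.16, -0.05 and -0.12 in the medium libraries for kinases and cyclins. For kinetochore and checkpoint genes it was 0.08, 0.03 and 0.05 with CpdA and -0.06, -0.05 and -0.02 in medium. Spindle motors gave 0.04, 0.09 and 0.05 with CpdA and -0.13, -0.05 and -0.03 in medium. In each class every CpdA library lay above every medium library. Each class held genes whose fold change was near 0 or negative, except the kinases and cyclins, whose lowest value was that of Ccnb2 at 0.10.

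**Figure D3:**
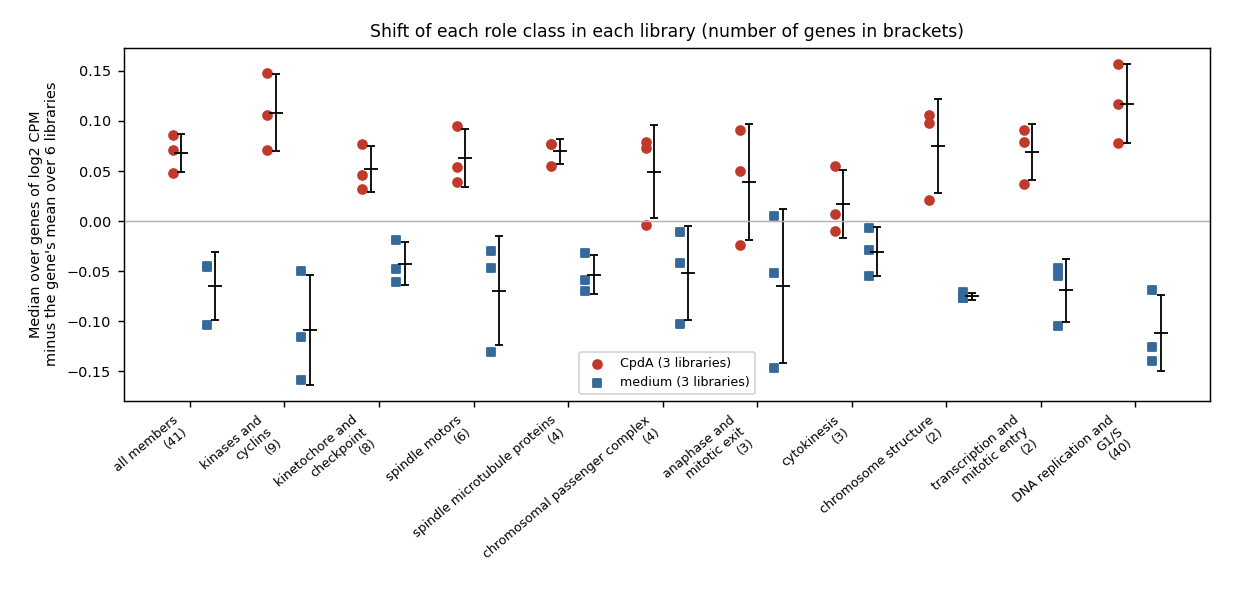
Median over the genes of a class of log2 CPM minus each gene's mean over the 6 libraries, for CpdA (circles) and medium (squares), with the mean and SD of each group beside the points. The groups are apart in the kinases and cyclins, the kinetochore genes and the motors, and overlap in the genes of anaphase and mitotic exit and of cytokinesis.

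The genes for spindle microtubule proteins were all called higher, 4 of 4, by small amounts. Hmmr, a spindle protein first known as a hyaluronan receptor, had 106, 107 and 107 CPM with CpdA and 93.6, 89.3 and 99.1 CPM in medium (log2 fold change 0.17, adjusted p = 0.000565, edgeR). Tpx2, which activates Aurora A on spindle microtubules, had 197, 187 and 198 CPM with CpdA and 181, 182 and 179 CPM in medium (log2 fold change 0.10, adjusted p = 0.0184, edgeR). No CpdA library of either gene was as low as a medium library. Prc1, which bundles the microtubules of the central spindle, rose by 0.12 and Nusap1, a protein that stabilises spindle microtubules, by 0.11. Of these, Hmmr was called under every alternative tried. Among the fits with 1 library left out, Tpx2 lost its call without CpdA replicate 1 (adjusted p = 0.0623), CpdA replicate 3 (0.0944) or medium replicate 3 (0.0738). Prc1 lost it without CpdA replicate 1 (0.0598), medium replicate 2 (0.0526) or medium replicate 3 (0.0608) and with GC and length trends removed (0.121). Nusap1 lost it without CpdA replicate 3 (0.141) or medium replicate 1 (0.212), with DESeq2 (0.0588) and with GC and length trends removed (0.257).

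Within the chromosomal passenger complex the subunits differed. Birc5, which codes for survivin (chromosome 11, 117849251 to 117855743), had 108, 101 and 109.9 CPM with CpdA and 83.5, 83.6 and 88.6 CPM in medium. Its groups did not overlap (log2 fold change 0.31 ± 0.04, SE, adjusted p = 8.55e-08, edgeR). Aurkb, the kinase of the same complex (chromosome 11, 69045647 to 69051664), had 144, 139 and 142 CPM with CpdA and 148, 142 and 147 CPM in medium. Here the groups overlapped and the log2 fold change was -0.05 ± 0.03 (SE, adjusted p = 0.293, edgeR). The ratio of Birc5 to Aurkb in FPKM was 0.439, 0.425 and 0.451 with CpdA and 0.331, 0.344 and 0.352 in medium. Incenp, the scaffold, rose by 0.11 (adjusted p = 0.0128, edgeR), although CpdA replicate 2 lay below medium replicate 2. That call was lost without CpdA replicate 1 (adjusted p = 0.0788), CpdA replicate 3 (0.0784), medium replicate 1 (0.0691) or medium replicate 3 (0.0544). Cdca8, which codes for borealin, did not pass (log2 fold change 0.08, adjusted p = 0.0996, edgeR). Without medium replicate 2 Cdca8 passed, as higher (log2 fold change 0.11, adjusted p = 0.0477, edgeR). Cdca8 overlaps the noncoding gene 9930104L06Rik on the other strand by 2264 bases.

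Of the genes of anaphase and mitotic exit, 1 of 3 was higher (33.3%). This is near the 24.9% of tested genes at or above the lowest member's level. Cdc20, the activator of the anaphase-promoting complex (chromosome 4, 118432901 to 118437352), had 115, 99.2 and 112 CPM with CpdA and 88.4, 97.5 and 98.6 CPM in medium (log2 fold change 0.18 ± 0.05, SE, adjusted p = 0.00327, edgeR). CpdA replicate 2 stood only just above the medium range. Ube2c, the ubiquitin-conjugating enzyme of that complex, had 149, 137 and 145 CPM with CpdA and 126, 142 and 139 CPM in medium (log2 fold change 0.07, adjusted p = 0.147, edgeR). It passed without CpdA replicate 2 (0.0463) or medium replicate 2 (0.0462). Pttg1, which codes for securin, the inhibitor of separase, was measured at 20.1, 20.3 and 18.8 CPM with CpdA and 17.7, 17.0 and 19.7 CPM in medium. These overlapped (log2 fold change 0.11, adjusted p = 0.29, edgeR), and the SE of 0.08 was among the largest of the members.

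Of the cytokinesis genes 1 of 3 was higher (33.3%, again near that share), and the other 2 did not pass. Racgap1, a GTPase-activating subunit of centralspindlin, had 118, 109 and 112 CPM with CpdA and 103, 105 and 98.5 CPM in medium (log2 fold change 0.13, adjusted p = 0.00685, edgeR). This call was lost without CpdA replicate 1 (adjusted p = 0.0626) or medium replicate 3 (0.07). Ect2, the exchange factor that activates RhoA at the cleavage furrow, did not pass (log2 fold change 0.03, adjusted p = 0.631, edgeR). Anln codes for anillin, the scaffold of the contractile ring, and had the lowest fold change of the members. It had 38.7, 39.2 and 41.1 CPM with CpdA and 47.8, 40.1 and 42.7 CPM in medium (log2 fold change -0.14 ± 0.06, SE, adjusted p = 0.0558, edgeR). Medium replicate 2 lay inside the CpdA range, and without it the log2 fold change was -0.19 and passed (adjusted p = 0.0112).

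Both commonly used proliferation markers among the members were higher. Top2a, the topoisomerase that untangles sister chromosomes (chromosome 11, 98992943 to 99024189), had 898, 939.8 and 931 CPM with CpdA and 813, 848 and 829.7 CPM in medium. The log2 fold change was 0.14 ± 0.03 (SE, adjusted p = 4.62e-05, edgeR). Mki67, the gene of the Ki-67 antigen (chromosome 7, 135689788 to 135716379), had 687, 734 and 742 CPM with CpdA and 661, 628 and 638 CPM in medium (log2 fold change 0.16 ± 0.03, SE, adjusted p = 3.67e-05, edgeR). Neither gene's groups overlapped, and CpdA replicate 1 was the lowest of the CpdA libraries in both, whereas it was the highest for Ccna2, Plk1, Nek2 and Cks2.

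Foxm1, the transcription factor that switches on many of these genes, had 76.2, 72.4 and 77.4 CPM with CpdA and 69.6, 70.5 and 68.7 CPM in medium. The groups did not overlap, and the log2 fold change of 0.10 ± 0.04 (SE) missed the threshold (adjusted p = 0.0578, edgeR). It passed without CpdA replicate 2 (0.0242), with library size scaling (0.0384), with the length trend removed (0.0325) and with GC and length trends removed (0.0039). Cdca3, which helps to trigger mitotic entry, had 96.5, 93.6 and 93.995 CPM with CpdA and 79.7, 85.1 and 85.9 CPM in medium (log2 fold change 0.17, adjusted p = 0.00101, edgeR).

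Per length, the members spanned a wide range of levels. Means in medium ran from 7.33 FPKM for Cenpf to 159 FPKM for Top2a, and 7 members were at 50 FPKM or above: Top2a, Cks2, Cenpa, Aurkb, Mki67, Ube2c and Cdc20. Across the 41 genes the log2 fold change was nearly unrelated to level (Pearson's r = 0.01 with log2 mean CPM), to log2 gene length (-0.10) and to GC content (0.11). These correlations are descriptions over genes that share the same 6 libraries. They cover the members alone, not trends over all tested genes. With trends on GC content and gene length over the tested genes removed, 22 members were called higher. Mad2l1, Ndc80, Nusap1 and Prc1 then lost their calls and Foxm1 passed, and the cause was not tested. Shorter or weakly counted overlaps with other annotated genes were also present for Nusap1 (Oip5, 172 bases), Cdc20 (Elovl1, 53 bases) and Prc1 (6330403N20Rik, 1889 bases) on the other strand, and for Foxm1 (4933413G19Rik, 438 bases) on the same strand. The members had a median deposited gene length of 3227 bases and a median GC content of 46.3%, against 2918 bases and 49.8% over all tested genes.

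**Figure D4:**
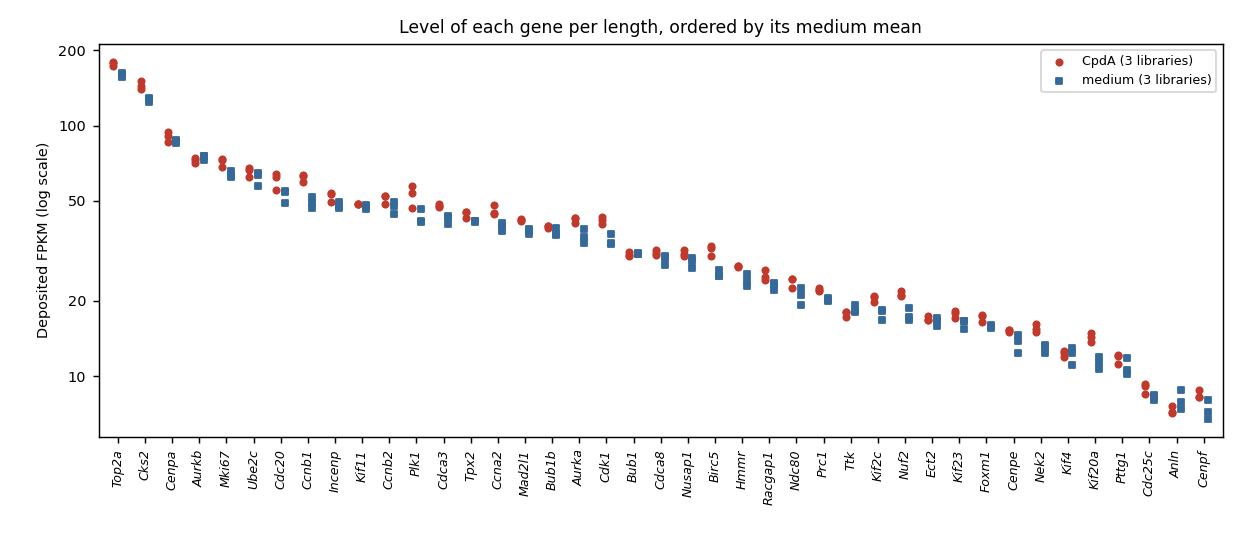
Deposited FPKM of each of the 41 genes (log axis) in the 3 CpdA (circles) and 3 medium (squares) libraries, in order of the medium mean, from Top2a at 159 to Cenpf at 7.33. The distance between the groups is small against the range of levels, and called genes such as Ccnb1, Birc5 and Kif20a stand at the upper, middle and lower part of the range.

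Further genes were taken from 7 lists of kinetochore, kinase, motor, spindle, anaphase, condensin and cytokinesis genes that are not members. Not every gene on these lists is particular to mitosis, the transport motor genes Kif3a and Kif3b among them. All were counted. Together these held 121 tested genes, of which 53 rose (43.8%), 11 fell and 57 did not pass, with a median log2 fold change of 0.10. The shares to set these and the following counts against are 16.5% higher and 16.7% lower over all tested genes. Among genes at or above the level of the lowest member they are 24.9% and 20.9%. Those genes were not matched to the members or the lists in level. Other kinetochore and checkpoint genes had 20 of 33 higher and 1 lower. Trip13, an ATPase that disassembles checkpoint complexes, rose by 0.40, Cenpu by 0.34 and Zwilch by 0.33, while Hjurp, the chaperone that loads Cenpa, fell by 0.28 on the log2 scale (80.5 FPKM with CpdA, 96.8 FPKM in medium). Other kinases, phosphatases and cyclins had 9 of 16 higher and 2 lower. Gsg2, the histone kinase haspin, rose by 0.31, Melk by 0.27 and Plk4, the kinase of centriole duplication, by 0.27, while Cdc25b and Nek9 fell by 0.19 and 0.10. Other kinesin motors had 8 of 12 higher and 1 lower, with Kif3a at 0.29, Kif18a at 0.26, Kif20b at 0.26 and Kif3b at -0.13. Kif3a and Kif3b are known as partners in a transport motor and went opposite ways.

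Of other spindle and centrosome genes 8 of 21 rose and 3 fell, with Gtse1 and Spag5 at 0.24, Stmn1 at 0.22, Psrc1 at -0.20, Clasp1 at -0.15 and Numa1 at -0.10. Among 17 genes of the anaphase-promoting complex and separase, 2 rose (11.8%) and 1 fell, which is below the share over all tested genes in both directions. Fbxo5, which codes for Emi1, an inhibitor of that complex, rose by 0.39 and the conjugating enzyme Ube2s by 0.17, and the core subunit Anapc1 fell by 0.09. Condensin and cohesin had 4 of 13 higher (30.8%) and 2 lower, near the shares among genes at or above the lowest member's level. The condensin genes Smc4, Smc2 and Ncapg2 rose by 0.19, 0.18 and 0.17, whereas the cohesin gene Rad21 and the condensin II gene Ncaph2 fell by 0.13 and 0.12. Of 11 other cytokinesis genes 4 rose and 1 fell, with Depdc1a at 0.25, Cep55 and Shcbp1 at 0.21 and the kinase gene Cit at -0.18. These lists share genes: Kif14 is also among the other motors and Cep55 among the other spindle and centrosome genes. Both were higher and enter the counts of each list they are on, but only 1 time among the 121 genes.

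Partners of B-Myb and FoxM1 and brakes on G2/M each held genes that rose and genes that fell. Over all tested genes 16.5% were called higher and 16.7% lower. Among those at or above the lowest member's level the shares were 24.9% and 20.9%. In both lists the share that rose was near this 24.9%. Of 12 genes for MuvB, its partners and NF-Y, 4 rose (33.3%) and 2 fell, with a median log2 fold change of 0.08. Lin9, a MuvB subunit, rose by 0.30, Nfyc by 0.24 and Mybl2, the B-Myb gene, by 0.20, while Rbl2, the p130 gene of the DREAM complex, fell by 0.19 and Nfyb by 0.10. Of 13 brakes 3 rose (23.1%) and 4 fell, with a median log2 fold change of -0.04. Fold changes of the brakes were positive for 5 and negative for 7. Gadd45a, a stress-induced inhibitor of Cdk1, rose by 0.55 (9.25 CPM with CpdA and 6.26 CPM in medium), and Chek1, the checkpoint kinase, and Gadd45b rose by 0.40 and 0.33. Ccng2, Btg2 and Cdkn1a, which are genes of growth arrest, fell by 0.35, 0.34 and 0.29. Cdkn1a, the p21 gene, had 251 FPKM with CpdA and 305 FPKM in medium.

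Genes of DNA replication and G1/S, the preceding stage of the cycle, had 35 of 40 higher, and the other 5 did not pass, with a median log2 fold change of 0.21. The members had 25 of 41 and a median of 0.13. Tyms, Cdc6 and Ccne2, the furthest of the replication list, rose by 0.50, 0.47 and 0.47. The median deviation of the replication list was 0.16, 0.08 and 0.12 in the CpdA libraries and -0.14, -0.07 and -0.13 in the medium libraries, and each CpdA library lay above each medium library, as for the members. Both lists were chosen with results of these data known, and the difference between them was not tested.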

How the data were processed

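Gene expression was measured in 3 libraries of CD4+ T cells given CpdA and 3 in medium alone. Per the file headers, the deposited table gives a read count and an FPKM for every gene and library, and the whole-number counts show no normalization. FPKM is the authors' value; it equals the count divided by gene length (kilobases) and by the total of the library, scaled as usual, to a relative tolerance of 1.86e-07. CASAVA 1.8, GRCm38 and mm10 stand in the submitters' processing notes. For the aligner, counter, annotation and strand setting: not given in the sources used here. Overlapping or near-identical genes may therefore share reads, as stated beside them.

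Counts were tested with edgeR 4.0.16 in R 4.3.3 (quasi-likelihood test, TMM scaling, robust dispersions, filterByExpr with a minimum count of 10 and a minimum total of 15, no covariates) over 13507 genes, adjusted by Benjamini-Hochberg at 0.05. Standard errors are the size of the log2 fold change divided by the square root of F. Printed CPM uses the library total alone; medians per library used log2 of TMM-scaled CPM plus 0.1. Alternatives were DESeq2 1.42.0, limma-voom (limma 3.58.1), 2 other scalings, 2 filters, a replicate block, each library left out, a length trend removed and, added after seeing the data, GC and length trends removed (13428 genes with a GC value). The steps were tested on simulated counts. Members and lists were chosen with earlier results of these data known. All 41 members may be named, and of the other lists up to 3 called genes in each direction. Libraries of the same group differed beyond sampling noise in every pair, with a chi-square over its degrees of freedom of 2.17 to 4.17, and each was kept as 1 replicate.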

Additional observations from a re-analysis of the deposited data

How the results depend on the processing

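Under the 15 alternatives the number of members called higher ran from 20 to 28, with 25 reported; leaving out 1 library gave 20 to 28, and 16 of the 25 calls were kept under every alternative. Of the 16 members not called, 8 passed under at least 1 alternative. The number called lower was 1 with a CPM of at least 5 in at least 3 libraries (Anln), 1 with GC and gene length trends removed (Ttk), and 0 to 1 when 1 library was left out (Anln without medium replicate 2). The members' median log2 fold change ran from 0.120 to 0.145 and the genes called over the whole table from 3648 to 4538. With GC and length trends removed, 2 kinetochore and checkpoint genes were called higher; Mad2l1 and Ndc80 were lost, and the cause was not tested. Fold changes near 0 turned negative for Kif4 (-0.001 with a CPM of at least 5 in at least 3 libraries, and -0.048 to 0.058 when 1 library was left out, with -0.010 without CpdA replicate 2 and the lowest without medium replicate 1) and for Ect2 (-0.014 with GC and length trends removed). In a shorter promoter window of 150 bases before and 50 after the start, 70.6% of members and 12.8% of all genes held TTTGAA, and 76.5% and 31.9% held CCAAT.

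The library numbers are shared by the groups but did not pair the libraries: deviations from the group means correlated at -0.021, -0.015 and -0.001 between same-numbered libraries, and no library correlated best with the one of its own number (correlations between groups ran from -0.021 to 0.023). With a replicate block, 3936 genes were called, and 22 members were higher and 0 lower; Tpx2 (adjusted p = 0.0605), Nusap1 (0.0567) and Prc1 (0.0513) were lost.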
